A study of Homo sapiens with 3 samples.

Results

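Paraspeckles are bodies in the nucleus that form on the long noncoding RNA NEAT1. The transcripts of NEAT1, of 6 proteins that work in or around paraspeckles (NONO, SFPQ, PSPC1, MATR3, RBM14 and TARDBP) and of MALAT1, a nuclear long noncoding RNA whose gene lies next to NEAT1 on chromosome 11, were followed across 3 RNA sequencing libraries of HEK 293T cells, a human embryonic kidney line (the sample titles say HEK293, the cell line labels HEK 293T). These 8 genes were taken by symbol from the 57268 gene identifiers of the deposited count table, and each symbol had 1 row. One library was made from wild-type cells with no overexpression (control), one from cells with ADAR2 overexpression only (the ADAR2 library) and one from cells that overexpressed SRSF9 as well as ADAR2 (the library with both proteins). ADAR2 is an RNA editing enzyme, the product of ADARB1, that turns adenosines of double-stranded RNA into inosines. SRSF9 belongs to the serine/arginine-rich splicing factors, and the study asked how it acts on editing at ADAR2 sites. Each group is 1 library and so has no replicate error: every interval below covers counting error only and no p-value is given. A library with an empty vector or with SRSF9 alone was not analysed here, so an effect of transfection cannot be told apart from one of ADAR2.

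The long form of NEAT1 is the scaffold on which SFPQ, NONO and RBM14 assemble a paraspeckle, whereas the short form is not sufficient to build one. SFPQ, NONO and PSPC1 are the 3 human proteins of the DBHS family (Drosophila behaviour, human splicing), which pair with each other through shared RNA-binding and coiled-coil regions. NONO, SFPQ and matrin 3, the product of MATR3, are also known as a complex that binds inosine-containing RNA and holds it in the nucleus, which links these genes to the enzyme overexpressed here. TDP-43, the product of TARDBP, binds UG-rich RNA and promotes use of the early poly(A) site of NEAT1. MALAT1 is found in nuclear speckles, the neighbouring bodies that hold splicing factors.

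The 2 forms of NEAT1 differ at their 3′ ends, and the ends are shown because they set which NEAT1 molecules carry a poly(A) tail. In GENCODE v29 the short transcript used here (NEAT1-208, spliced from 3 exons) ends at base 3716 of the 22743-base long transcript, both on the plus strand. The last 100 bases of each, all noncoding exon, are given 5′ to 3′ from the reference transcripts, at chr11:65426414-65426513 for the short form and chr11:65445441-65445540 for the long form (GRCh38, a build other than the hg19 of the submitters' processing notes). Capitals mark the poly(A) signal AATAAA in the short form, and in the long form a U-rich stretch, TTTTGCTTTT, and the A-rich stretch AAAAAGCAAAA that closes the transcript. Other U-rich bases of the long form, upstream of these, are left in lower case.
NEAT1 short form: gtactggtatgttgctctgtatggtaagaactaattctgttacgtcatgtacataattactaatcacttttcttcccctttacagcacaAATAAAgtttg
NEAT1 long form: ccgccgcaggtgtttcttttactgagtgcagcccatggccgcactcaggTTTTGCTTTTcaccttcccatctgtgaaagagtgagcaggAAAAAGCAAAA
The signal stands 5 bases before the end of the short form and is not among the last 100 bases of the long form, whose 3′ end is cut by RNase P and protected by a triple helix, as is that of MALAT1. The deposited table has 1 count per gene, so reads of the short and the long form were not separated.

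Levels are given as CPM, the reads of a gene per 1000000 reads after TMM scaling of the library totals, which were 152878282 for the control, 132887974 with ADAR2 and 97875935 with both proteins. The overexpressed genes followed the labels: ADARB1 stood at 114, 16100.0 and 13647 CPM in these libraries, and SRSF9 at 372, 369 and 18288 CPM. ADARB1 was lower with both proteins than with ADAR2 only, so those libraries differ in ADARB1 level as well as in SRSF9. Of 8 markers of the HEK293 line (among them VIM, NEFM and IGF2BP1), 8 were measured, with summed levels of 965 to 1007 CPM. Fibroblast markers reached 1 CPM for 1 of 7 (COL1A1) and blood markers for 2 of 5, and THY1 had 0 reads in each library.

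NEAT1 (ENSG00000245532.4) was highest in the control. It had 39856 reads there, 27768 with ADAR2 and 21526 with both proteins, or 258, 207 and 225 CPM. The counting intervals of the 3 levels do not overlap, at 255 to 261, 204 to 209 and 222 to 228 CPM. Its level with ADAR2 was 0.802 times that of the control (95% counting interval 0.789 to 0.814), and 1.59% of the 10362 genes with a mean of 10 CPM or more had a lower ratio in that comparison. With both proteins NEAT1 was at 1.09 times its ADAR2 level (1.07 to 1.11) and at 0.870 times its control level (0.856 to 0.885).

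MALAT1 (ENSG00000251562.3) did not follow its neighbour. Its 40709, 35730 and 28812 reads gave 264, 266 and 300.5 CPM, so the control and the ADAR2 library overlap within counting error and the library with both proteins stands above both. The ratio of ADAR2 to control was 1.01 (0.996 to 1.02), that of both proteins to ADAR2 1.13 (1.11 to 1.15) and that of both proteins to control 1.14 (1.12 to 1.16). When both proteins were compared with ADAR2, 94.0% of genes with a mean of 10 CPM or more had a lower ratio than MALAT1, and 86.0% a lower one than NEAT1.

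Setting the 2 RNAs against each other within a library removes the scaling between libraries. For each read of MALAT1 there were 0.979 reads of NEAT1 in the control (0.966 to 0.993), 0.777 with ADAR2 (0.765 to 0.789) and 0.747 with both proteins (0.734 to 0.760). The control thus stands apart from both overexpressing libraries, which lie close together. The difference between the overexpressing libraries, where both RNAs were higher with both proteins, is small beside it.

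**Figure D1:**
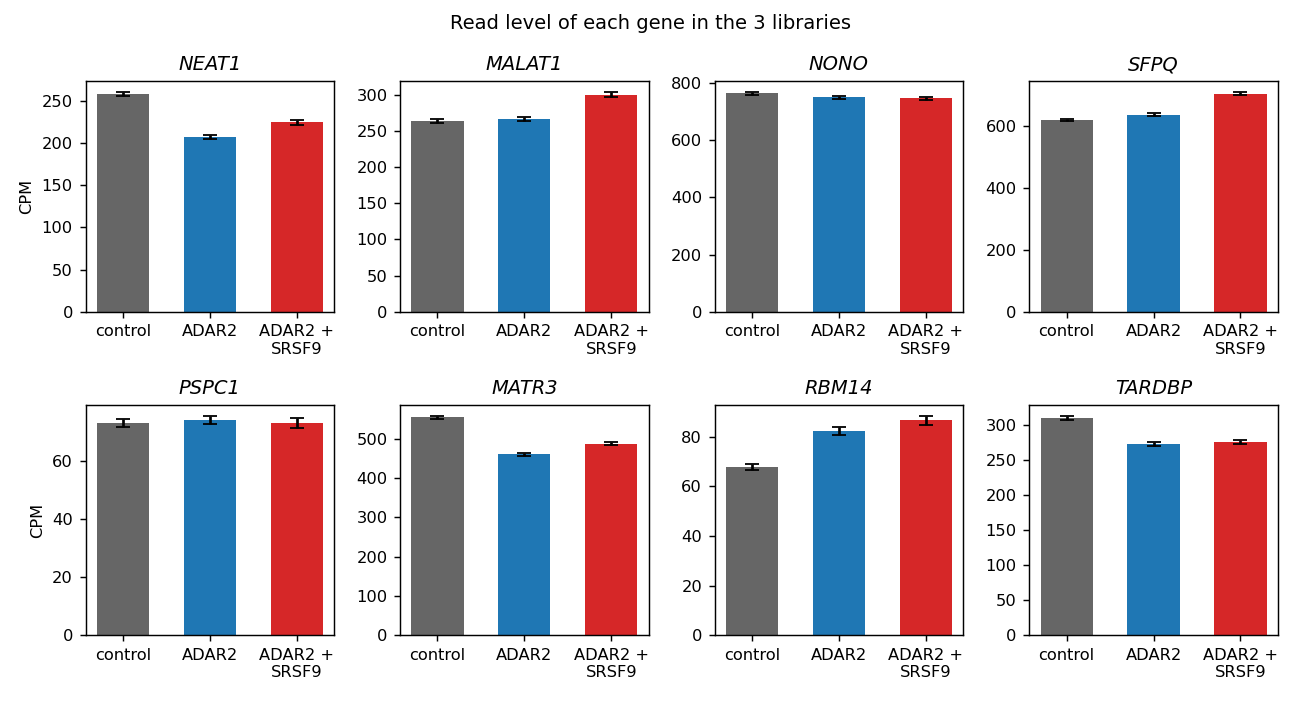
Level of each of the 8 genes in CPM (vertical axes, starting at 0 and scaled per gene) in each of the 3 libraries. Bars are the single library of each group and whiskers its 95% Poisson counting interval; NEAT1 is highest in the control at 258 CPM, MALAT1 and SFPQ with both proteins at 300.5 and 706 CPM.

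NONO (ENSG00000147140.11), the most abundant of the 8 genes in CPM, was nearly level. It had 118096, 100699 and 71568 reads, in the same order of libraries, or 764, 750.0 and 747 CPM. Its ratios were 0.981 for ADAR2 to control (0.973 to 0.989), 0.995 for both proteins to ADAR2 (0.986 to 1.005) and 0.977 for both proteins to control (0.968 to 0.986). PSPC1 (ENSG00000121390.13) was level within counting error, with 11283, 9934 and 6993 reads, or 73.0, 74.0 and 72.9 CPM. Each of its 3 ratios had a counting interval that includes 1, the widest running from 0.956 to 1.02. Reads of NONOP2, a pseudogene copy, came to 0.365% to 0.409% of those of NONO, and reads of PSPC1P1 to 3.78% to 4.55% of those of PSPC1, and adding them to the source gene moved no ratio beyond its counting interval.

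SFPQ (ENSG00000116560.6) differed from its DBHS partners. Its 95899, 85657 and 67707 reads gave 621, 638 and 706 CPM, with counting intervals that do not overlap. It was at 1.03 times the control in the ADAR2 library (1.02 to 1.04), at 1.11 times the ADAR2 level with both proteins (1.10 to 1.12) and at 1.14 times the control there (1.13 to 1.15). Within a library, reads of NONO per read of SFPQ went from 1.23 in the control (1.22 to 1.24) to 1.18 with ADAR2 (1.16 to 1.19) and 1.06 with both proteins (1.05 to 1.07). Reads of PSPC1 per read of SFPQ were 0.118, 0.116 and 0.103, the last with an interval (0.101 to 0.106) below the other two. The ratio of PSPC1 to NONO, at 0.0955, 0.0987 and 0.0977, had overlapping intervals in the 3 libraries. The library with both proteins therefore held more SFPQ transcript relative to either partner than the other libraries.

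**Figure D2:**
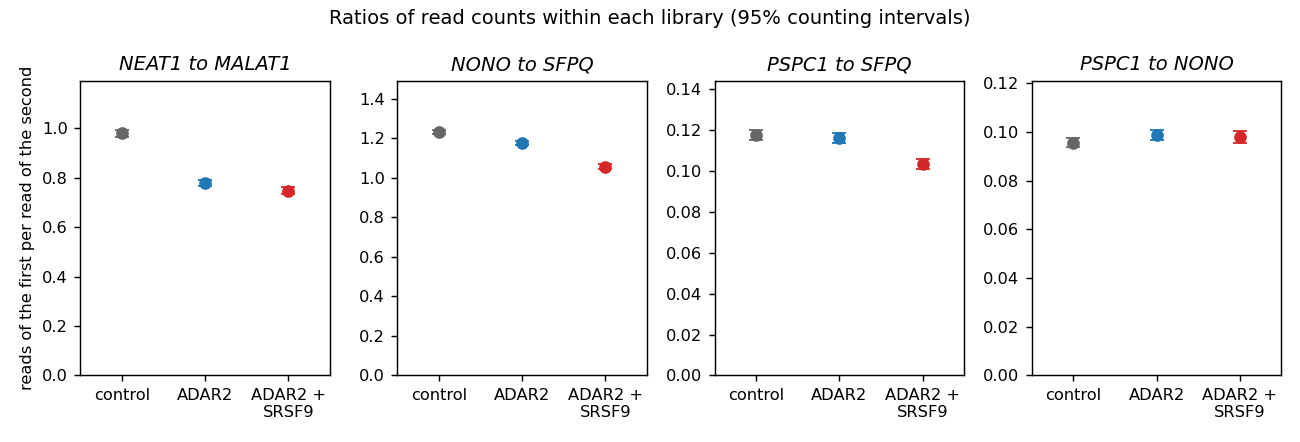
Reads of one gene per read of another within each library (vertical axes, starting at 0), with 95% counting intervals as whiskers. NEAT1 to MALAT1 is at 0.979 in the control and at 0.777 and 0.747 in the other libraries, NONO to SFPQ and PSPC1 to SFPQ are lowest with both proteins at 1.06 and 0.103, and PSPC1 to NONO is level.

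MATR3 (ENSG00000015479.13), the matrin 3 gene, was highest in the control, as NEAT1 was. Its 85619, 61817 and 46682 reads gave 554, 460.4 and 487 CPM, with intervals that do not overlap. The ADAR2 library was at 0.831 times the control (0.822 to 0.839), both proteins at 1.06 times ADAR2 (1.04 to 1.07) and at 0.879 times the control (0.869 to 0.889). In the GRCh38 annotation a second identifier with the symbol MATR3 overlaps this locus, so how reads were assigned there depends on the annotation used. TARDBP (ENSG00000120948.11) was also highest in the control, with 47996, 36614 and 26467 reads and 311, 273 and 276 CPM. Its ratio to the control was 0.878 in the ADAR2 library (0.866 to 0.890) and 0.889 with both proteins (0.875 to 0.902), and the 2 overexpressing libraries overlap within counting error (1.01, 0.996 to 1.03).

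RBM14 (ENSG00000239306.4), an RNA-binding coactivator with a prion-like domain that paraspeckles need to form, moved the other way. Its 10485, 11066 and 8300 reads gave 67.9, 82.4 and 86.6 CPM, lowest in the control, with intervals that do not overlap. The ADAR2 library was at 1.21 times the control (1.18 to 1.25), both proteins at 1.05 times ADAR2 (1.02 to 1.08) and at 1.28 times the control (1.24 to 1.31). The readthrough gene RBM14-RBM4, whose annotation overlaps RBM14, had 5, 7 and 3 reads.

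The 8 genes went both ways, and their differences were under 1.5-fold. Here a gene is called apart when the libraries differ at least 1.2-fold, up or down, and the counting interval excludes 1. With ADAR2 against control, 3 of 8 were apart, NEAT1 and MATR3 lower and RBM14 higher, where 13.9% of the 16072 genes with a mean of 1 CPM or more were apart (7.43% higher and 6.46% lower). Shares of all genes, here and for the lists below, take in genes of few reads and are not matched in level. The 8 genes had means of 73.3 CPM or more. Among the 10362 genes with a mean of 10 CPM or more, 3.74% had a lower ratio than MATR3 in this comparison, and 97.2% a lower one than RBM14. The call of MATR3, at the 1.2-fold limit with a log2 ratio of -0.27, was lost with DESeq2 size factors (-0.25) and with library totals without mitochondrially encoded genes, ADARB1 and SRSF9 (-0.25). Adding SRSF9 to ADAR2 left 0 of 8 apart, against 13.9% of all genes (5.72% higher and 8.21% lower). For both proteins against control, RBM14 alone was apart and higher, against 26.5% of all genes (13.8% higher and 12.7% lower). At 1.5-fold, 0 of the 8 genes were apart in any comparison, against 1.26%, 3.39% and 3.99% of all genes. The median log2 ratio of the 8 was -0.0065, 0.076 and -0.018 in the 3 comparisons, and that of the 16072 genes -0.00094, 0.012 and -0.0058. The comparisons share libraries, so their values are not independent of each other.

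**Figure D3:**
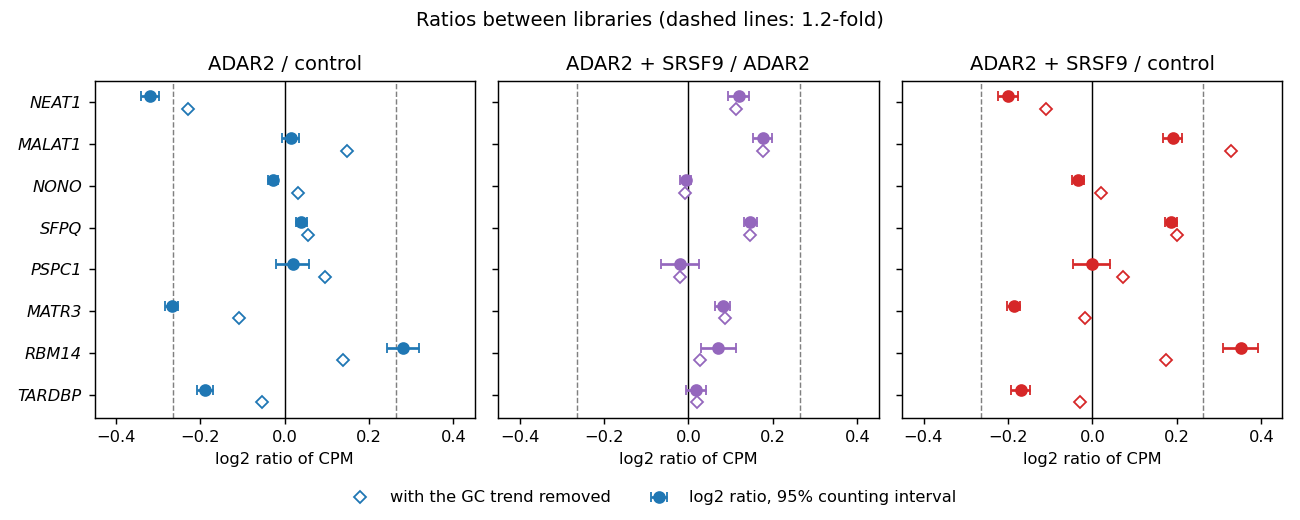
Log2 ratio of CPM (horizontal axes) for the 8 genes in the 3 comparisons; filled circles are the ratios with 95% counting intervals, open diamonds the same ratios after the trend with GC content is subtracted, and dashed lines mark 1.2-fold. NEAT1 and MATR3 lie beyond the lower line and RBM14 beyond the upper one in ADAR2 against control, and no diamond does in that panel.

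GC content moved with these ratios. Across the 10198 genes with a mean of 10 CPM or more and a reference transcript, the GC content of the longest transcript correlated with the log2 ratio at a Spearman's rho of 0.76 where ADAR2 was set against control, 0.19 where both proteins were set against ADAR2 and 0.70 where they were set against control, as a description over genes of the same libraries. The 8 genes span much of that range: MATR3 has 37.6% GC, TARDBP 40.2%, MALAT1 40.3%, NEAT1 44.1%, PSPC1 45.3%, NONO 46.7%, SFPQ 48.8% and RBM14 59.4%. For MATR3 and NONO the longest transcript, at 7306 and 3215 bases, is not of the gene's own annotated type. The longest of that type, at 4843 and 2882 bases, are used only for levels per length below. The trend, taken as a running median over protein-coding genes, was -0.16 on the log2 scale at the GC content of MATR3 and 0.14 at that of RBM14 in ADAR2 against control.

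With this trend subtracted, the log2 ratio of ADAR2 to control went from -0.27 to -0.11 for MATR3, from 0.28 to 0.14 for RBM14 and from -0.19 to -0.05 for TARDBP, and 0 of the 8 genes were apart. The share of all genes apart after this subtraction was not computed. Calls on that scale therefore cannot be set against the shares given above, which are of unsubtracted ratios. NEAT1 went from -0.32 to -0.23, or 0.854 times the control, and 1.52% of genes had a lower value on that scale. MALAT1 went from 0.01 to 0.15, so the gap between the 2 RNAs was no smaller. For both proteins against control MALAT1 went from 0.19 to 0.33, or 1.25 times, and was then apart, with 98.9% of genes below it, whereas RBM14 went from 0.35 to 0.17 and was not. SFPQ was at 0.19 before and 0.20 after the subtraction in that comparison, and at 0.15 both times in both proteins against ADAR2. NEAT1 in both proteins against control was at -0.11, MATR3 at -0.02 and TARDBP at -0.03.

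**Figure D4:**
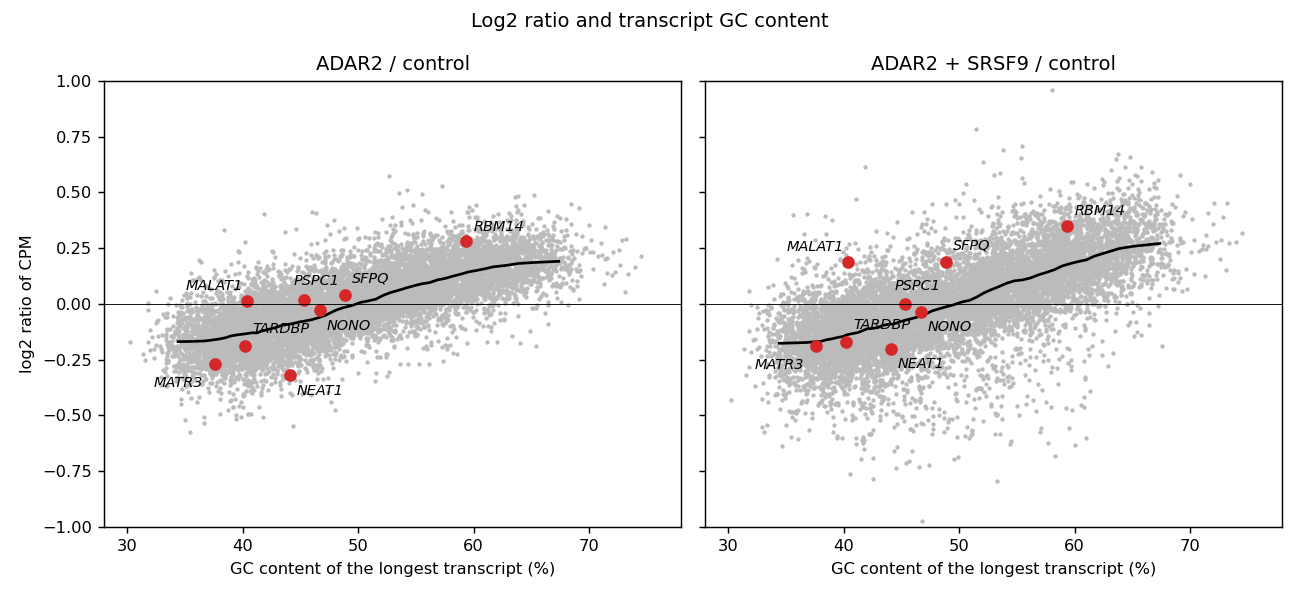
Log2 ratio of CPM against GC content of the longest transcript in percent, for genes with a mean of 10 CPM or more (grey points; those beyond the axes are not drawn), the smoothed median of protein-coding genes (black line) and the 8 genes (red). NEAT1, MATR3 and TARDBP lie below the line and MALAT1 and RBM14 above it in both panels.

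Among RNAs made wholly or partly without a poly(A) tail, differences between these libraries were many times larger. Of 17 listed (7SK, signal recognition particle, RNase MRP and RNase P RNAs, small nucleolar and related RNAs and replication-dependent histones), 12 were measured at a mean of 1 CPM or more. In ADAR2 against control 7 of the 12 were lower and 0 higher, where 6.46% of all genes were lower, with a median log2 ratio of -0.75. RN7SK, the RNA that holds back transcription elongation, was at 1.88 CPM against 22.3, and RMRP, the RNA of RNase MRP, at 0.313 against 1.08. With SRSF9 added to ADAR2, 9 of the 12 were higher and 0 lower, where 5.72% of all genes were higher, with a median of 1.99, and RPPH1, the RNA of RNase P, went from 0.670 to 7.35 CPM. Against the control, 8 were higher and 3 lower with both proteins, against 13.8% and 12.7% of all genes. The 3 lower were the histone genes HIST1H1C, HIST1H2AC and HIST1H2BD. The filter took the mean over all 3 libraries, so an RNA could pass it through a high level with both proteins. SCARNA2, called higher there in both comparisons, was at 0.738 CPM in the control, 0.380 with ADAR2 and 2.32 with both proteins. The filter thus has a part in the counts of higher RNAs and in the median of 1.99. The summed level of the list was 159 CPM in the control, 115 with ADAR2 and 288 with both proteins. A few RNAs dominate this sum: RN7SL1 and RN7SL2 were at 67.9 and 68.3 CPM with both proteins. HIST1H1C, the largest in the control, fell from 59.9 to 52.7 and 44.1 CPM. NEAT1, like the sum, was lowest in the ADAR2 library, but it was higher in the control than with both proteins, the opposite of the sum. MALAT1 was highest with both proteins, as the sum was. VTRNA1-1 had 0, 0 and 1 reads. The part of tail-dependent recovery in the values of NEAT1 and MALAT1 was not tested, and the labels do not say whether RNA was selected by its poly(A) tail.

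Of the other proteins reported in paraspeckles, 1, 0 and 3 of 32 were apart in the 3 comparisons, against 13.9%, 13.9% and 26.5% of all genes. Those shares include genes of lower read level than most of this list, so the smaller counts do not show that the list is more stable. Of 34 rows for the 33 symbols listed, 32 were measured, and CELF6 with 2 rows was not. In ADAR2 against control 1 of 32 was lower (FIGN, 27.0 against 33.9 CPM) and 0 higher, with a median log2 ratio of -0.0029. Adding SRSF9 to ADAR2 left 0 of 32 apart, the largest ratio being that of RBMX, an hnRNP G protein, at 521 against 462 CPM (1.13, 1.11 to 1.14), and the median was 0.047 with 21 of 32 above 0. Of all genes with a mean of 1 CPM or more, 8630 of 16072 were above 0 in that comparison, with a median of 0.012. For both proteins against control FIGN (25.7 against 33.9 CPM) and NUDT21 (123 against 150.0 CPM), a subunit of the cleavage factor that with CPSF6 directs NEAT1 to its early poly(A) site, were lower, and CIRBP, a cold-inducible RNA-binding protein, was higher (239 against 187 CPM, 1.28 times, 1.26 to 1.30). CPSF6 itself was at 164, 148 and 157 CPM. HNRNPK, which counters the cleavage factor at that site, was at 735, 684 and 716 CPM. CPSF6 and HNRNPK were named here for these roles and not by the size of their ratios.

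Nuclear speckle proteins, the company of MALAT1, were apart for 1, 0 and 0 of 23 listed and measured, against the same 13.9%, 13.9% and 26.5% of all genes, which were not matched to them in read level. The 1 was CLK1, a kinase of SR proteins, lower in ADAR2 against control (41.3 against 50.2 CPM). Their median log2 ratios were -0.051, -0.0048 and -0.064. SON and SRRM2, the scaffolds of speckles, were at 371, 358 and 345 CPM and at 1178, 1230 and 1251 CPM, in the order control, ADAR2, both proteins. With SRSF9 added to ADAR2, the ratio of SRSF3 was the largest (1.11, 1.09 to 1.12), and U2AF2, a subunit of the factor that recognises the polypyrimidine tract, in both proteins against control (1.19, 1.17 to 1.205).

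The list for 3′ end processing of MALAT1 and the long form of NEAT1 held RNase P proteins, the tRNase Z gene ELAC2 and METTL16, which binds the MALAT1 triple helix. Of its 12 measured genes 0, 1 and 1 were apart, against 13.9%, 13.9% and 26.5% of all genes. In ADAR2 against control RPP25 had the largest ratio at 27.4 against 23.1 CPM. RPP40 was higher in both proteins against ADAR2 (10.3 against 8.10 CPM, 1.27 times, 1.17 to 1.39), and RPP25 in both proteins against control (30.4 against 23.1 CPM, 1.31 times, 1.25 to 1.38). The list's median log2 ratios were -0.011, 0.065 and 0.13. ELAC2 was at 174, 186 and 198 CPM and METTL16 at 63.1, 58.9 and 57.1 CPM.

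Other nuclear long noncoding RNAs differed from each other, with 1, 3 and 3 of 6 apart against 13.9%, 13.9% and 26.5% of all genes. Of 8 listed, 7 were in the table and 6 were measured, MEG3 having 0 reads in each library, and the median log2 ratios were -0.19, 0.12 and -0.13. MIAT, at 1.76 against 2.11 CPM, was lower in ADAR2 against control (0.833, 0.702 to 0.988). Its call lies at the 1.2-fold limit, on 236 against 326 reads. DESeq2 size factors, which shift log2 ratios in this comparison by 0.014, would take it inside that limit. Between both proteins and ADAR2, KCNQ1OT1, a long antisense RNA of an imprinted domain (17.9 against 12.2 CPM), and FTX (3.38 against 2.52 CPM) were higher, while PVT1 was lower (5.95 against 8.43 CPM). TUG1, the most abundant of them, stood at 141 CPM in the control, 126 with ADAR2 and 109.7 with both proteins, the last at 0.780 times the control (0.762 to 0.799) and lower past the threshold. KCNQ1OT1 and FTX were above the control there, at 1.25 and 1.43 times.

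**Figure D5:**
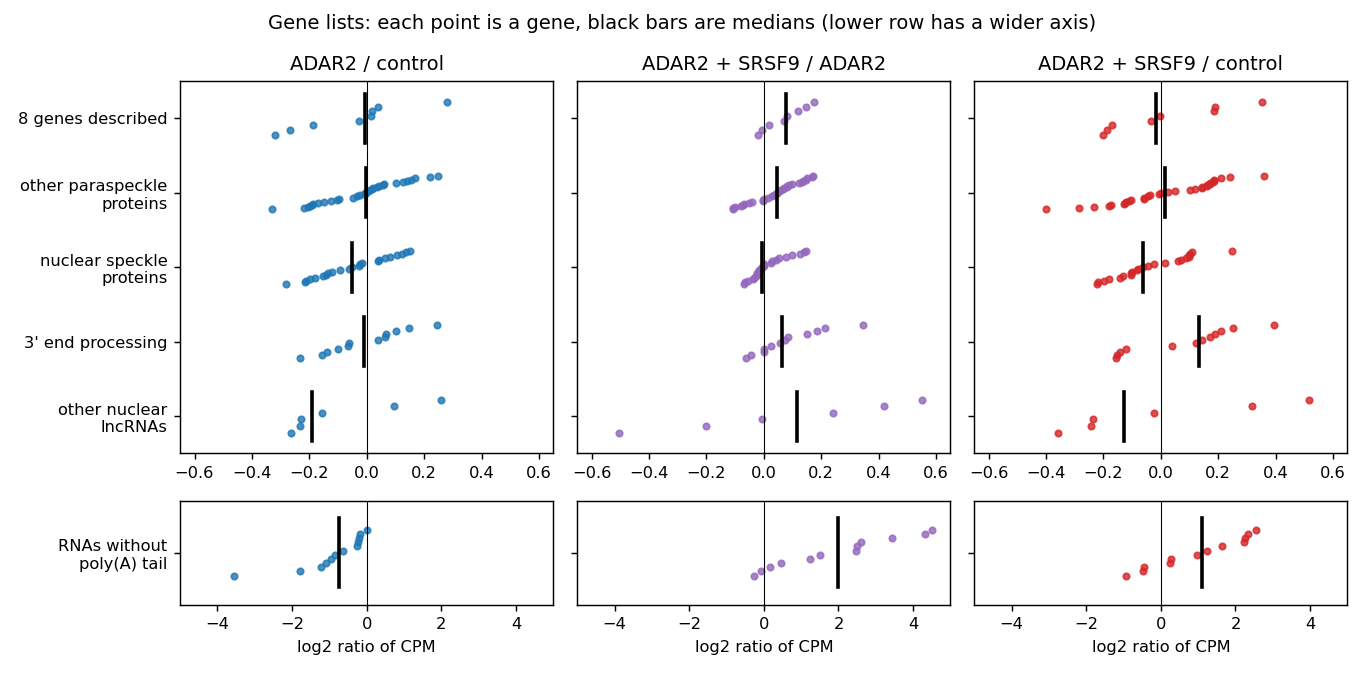
Log2 ratio of CPM (horizontal axes) of every measured gene of the 6 lists in the 3 comparisons, with the list median as a black bar. The 5 upper lists lie within 0.6 of 0. The RNAs made wholly or partly without a poly(A) tail, on a wider axis in the lower row, reach from -3.56 to 4.52.

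Genes with a pattern most like NEAT1 were sought by the distance between pairs of log2 ratios to the control, among 10362 genes with a mean of 10 CPM or more over 3 libraries. Nearest were TMPO, which encodes lamina-associated polypeptide 2 (182, 146 and 159 CPM, distance 0.01), then LMBR1, NUDT12, AASS and PPIP5K2, all within 0.02. Their GC contents run from 34.2% to 42.9%, below the 44.1% of NEAT1. Among the nearest to MALAT1 were UROS, SLC13A4 and RBM3, a cold-inducible protein that is also on the paraspeckle list, all within 0.01. The GC contents of these 3, 45.3% to 51.9%, are above the 40.3% of MALAT1. With 2 ratios per gene, likeness of this kind is a weak description.

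Per length, the order of the 8 genes depends on which NEAT1 form is meant. Dividing CPM by the length of the longest transcript of the gene's own type gave, in the control, 265 CPM per kilobase for NONO, 166 for SFPQ, 114 for MATR3, 57.9 for TARDBP, 30.3 for PSPC1, 30.3 for MALAT1, 24.0 for RBM14 and 11.3 for NEAT1 over its 22743 bases. Over the 2994 bases of the short transcript NEAT1-208, NEAT1 would stand at 86.2, between MATR3 and TARDBP. That transcript is spliced from 3 exons and ends at base 3716 of the long form, so an unspliced short form would be longer and its value lower. With both proteins MALAT1 (34.5), RBM14 (30.6) and PSPC1 (30.3) had changed places, and the order of the first 4 was kept in all 3 libraries.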

How the data were processed

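Whole-number read counts per gene were deposited by the authors for 3 libraries of 1 group each, without normalisation. The submitters' processing notes name hg19, STAR, Picard, GATK and SAMtools, without roles. For the counting program and whether it used strand, the answer is not given in the sources used here, so overlapping and antisense genes may share reads. A directional kit was used on total RNA, per the labels' protocols.

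TMM scaling of library sizes was done in edgeR 4.0.16 (R 4.3.3), and its factors were 1.01, 1.01 and 0.979. Log2 ratios used a prior count of 0.5, and their 95% intervals were Clopper-Pearson (exact) limits on the share of a gene's reads, over 2 libraries, that fell in the first. Levels had exact Poisson intervals. The limit that 3 reads set is 0.0194 to 0.0313 CPM. Other steps used Python 3.11.15, numpy 2.4.6, pandas 2.3.3, scipy 1.17.1 and matplotlib 3.10.9. The calculation was tested on simulated counts. Transcript lengths, GC content and the 3′ ends came from GENCODE v29 (GRCh38). For the GC trend, 9594 protein-coding genes with a mean of 10 CPM or more were put in 50 bins of GC content, and the bins' median log2 ratios were averaged over 5 bins.

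The members, gene lists and thresholds were chosen with earlier results of these data known. Named list genes are those at 1.2-fold with an interval excluding 1 (the 4 largest where over 5), else the largest ratio, besides SON, SRRM2, ELAC2, METTL16, CPSF6, HNRNPK and TUG1, named for their role or level after their values were seen. Some genes that these rules name are not reported here.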

Additional observations from a re-analysis of the deposited data

How the results depend on the processing

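A change of scaling shifts all genes of a comparison alike, by at most 0.045 on the log2 scale, so it can turn the sign of small ratios only. The 8 genes kept the sign of their log2 ratio in 154 of 159 recalculations, many of them of this kind. The exceptions, all of genes not 1.2-fold apart, were NONO and PSPC1 with the GC trend removed (NONO 0.033 against -0.027 in ADAR2 against control and 0.020 against -0.034 in both proteins against control, PSPC1 0.071 against -0.0017 in the latter) and TARDBP in both proteins against ADAR2 (-0.027 with library totals and -0.0028 with totals without mitochondrially encoded genes, ADARB1 and SRSF9, against 0.018). With the GC trend removed, 0 of the 8 genes in place of 3 were apart in ADAR2 against control, and MALAT1 took the place of RBM14 in both proteins against control. The share of all genes apart with that trend removed was not computed, so such counts, here and for the other paraspeckle proteins, have no background beside them. The median of the 8 was then 0.044 in place of -0.0065 in the first of these comparisons, and 0.046 in place of -0.018 in the second. With the GC content of the short NEAT1 transcript, a setting chosen after seeing the data, NEAT1 was at -0.24, 0.12 and -0.12 in the 3 comparisons. With library totals the median was 0.031 in place of 0.076 in both proteins against ADAR2, and -0.063 in place of -0.018 in both proteins against control. In the former, where every gene shifted by -0.045, NEAT1 was at 0.074 in place of 0.119, MALAT1 at 0.131 in place of 0.175 and SFPQ at 0.102 in place of 0.147. MATR3 sits at the 1.2-fold limit and was not apart in ADAR2 against control with DESeq2 1.42.0 size factors and with totals without mitochondrially encoded genes, ADARB1 and SRSF9. At a 1.5-fold threshold 0 of the 8 genes and 0 of the other paraspeckle proteins were apart in each comparison. Of the latter, 2 in place of 1 were apart in ADAR2 against control with DESeq2 size factors and with the mitochondrial genes left out (AHDC1 beside FIGN), and 0 with the GC trend removed, where RBMX and HNRNPH1 were apart in both proteins against control in place of FIGN, NUDT21 and CIRBP. Upper-quartile scaling, a prior count of 5, no filter on low counts and a mean of 10 CPM or more left these counts within 1.5 times. Adding reads of copies or readthrough rows moved no ratio of RBM14, NONO, PSPC1 or TARDBP beyond its counting interval, and MATR3 had no such row. No paired analysis was possible because each group has 1 library, and for the same reason no library could be left out. Counting error limits none of the 8 genes much at 6993 reads or more, whereas differences between libraries of one group cannot be measured here.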
